A study of Mus musculus with 37 samples.

Results

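The genes described here are the 37 genes of the mitochondrial genome and the 45 nuclear genes whose symbols start with Nduf, 82 of the 39017 genes counted in bulk RNA from mouse pancreatic tumours. They were chosen by symbol, mt- or Nduf, and by no measured value. Of the mitochondrial genes, 13 encode proteins, 2 encode ribosomal RNAs and 22 encode transfer RNAs. The nuclear genes encode 7 core and 29 accessory subunits of complex I, 7 assembly factors (Ndufaf), and the pair Ndufa4 and Ndufa4l2, whose products are now counted with complex IV or as a paralogue of it.

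Complex I is the NADH dehydrogenase at the start of the mitochondrial respiratory chain, and it is built from subunits of both genomes. The core subunits carry the flavin, the iron-sulfur clusters and the proton-pumping membrane arm, and the membrane arm's core subunits are all encoded by mitochondrial DNA. Mitochondrial DNA is transcribed from both strands as long precursors that are cut at the tRNAs that punctuate them, whereas each Nduf gene has its own nuclear promoter. Mitochondrial and nuclear transcripts of the same complex can therefore differ in level.

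Tumours grew for 3 weeks under the skin of untreated C57BL/6 mice after implantation of pancreatic tumour cell clones, and each library came from 1 bulk tumour. The labels name each clone's tumours T cell high (7 clones, 15 libraries), T cell low (7 clones, 15 libraries) or T cell intermediate (2 clones, 4 libraries). Clones are named by how their sample titles begin. A clone is a cell line, so its tumours share the implanted cells, and the clone was the replicate. Some clones share the number in their names: bulk_6419c1 and bulk_6419c5 (both low), bulk_6499c3 (low) and bulk_6499c4 (high), and bulk_6556c3 (low) and bulk_6556c4 (high). So do bulk_6422c1 (low) and bulk_6422c5 (intermediate), and bulk_7160c2 (high) and bulk_7160c5 (intermediate). These were counted as separate replicates without pairing, and whether they are independent was not tested. Tumours numbered 1 in their titles (16 clones, 16 libraries) are called first tumours here, and those numbered 2 to 4 (15 clones, 18 libraries) later tumours. Low clone bulk_6422c1 had a first tumour only. Another 3 libraries have no phenotype label. In bulk RNA, fewer cells of a type and less RNA per cell cannot be told apart.

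Total counts of the 34 labelled libraries were 7.39 to 102.3 M (M, mega). The labelled tissue was checked by its markers. The 6 ductal epithelial genes Krt19, Krt8, Krt18, Krt7, Epcam and Cdh1 summed to between 3462 and 10806 CPM (a gene's count per M counts of the library), and none was at 0 throughout a set. Liver and heart genes stood apart. Cps1 and Serpina3k of liver and Myh6 and Myh7 of heart together reached 257.7 to 5922 CPM in every first tumour, 2884 CPM in the second tumour of low clone bulk_2669c4, and at most 0.539 CPM in the other later tumours. The first tumours of clones bulk_2838c3, bulk_6419c5, bulk_6499c4 and bulk_6555c3 resembled each other closely: chi-squared divided by the number of genes was 3.25 to 8.27 for their pairs, but 18.4 to 389.4 over the members alone. First and later tumours were compared separately, a split set by the tumour number in the titles and not by these values. Numbered tumours of a clone differ in this content as a group, so tumour number and the liver and heart content cannot be told apart.

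Some mitochondrial genes have near-identical nuclear copies, which bears on how their reads can be assigned. In the reference (GENCODE M21, build GRCm38) a run of nuclear copies of mitochondrial DNA lies on chromosome 1. The 3 pairs that follow show how close the copies are, as the mitochondrial stretch and its nuclear copy, 5′ to 3′ along the gene, with bases that differ in capitals. The pair of mt-Atp6, a membrane subunit of ATP synthase, and Gm10925 has no difference in 678 aligned bases. The pair of mt-Nd3, a complex I core subunit, and Gm28438 has 1 difference in 345 bases. The pair of mt-Co1, the catalytic subunit of complex IV, and Gm29216 has 6 differences in 492 bases, all within the stretch shown.
mt-Atp6, chrM:7977-8076, plus strand: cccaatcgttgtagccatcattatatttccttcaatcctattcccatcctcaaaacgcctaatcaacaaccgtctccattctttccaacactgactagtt
Gm10925, chr1:24614502-24614601, minus strand: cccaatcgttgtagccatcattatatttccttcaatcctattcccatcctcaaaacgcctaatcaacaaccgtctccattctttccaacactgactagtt
mt-Nd3, chrM:9459-9558, plus strand: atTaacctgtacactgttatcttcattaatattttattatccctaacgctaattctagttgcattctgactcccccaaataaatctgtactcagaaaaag
Gm28438, chr1:24613020-24613119, minus strand: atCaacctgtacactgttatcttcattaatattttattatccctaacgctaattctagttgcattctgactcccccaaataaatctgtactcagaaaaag
mt-Co1, chrM:6381-6480, plus strand: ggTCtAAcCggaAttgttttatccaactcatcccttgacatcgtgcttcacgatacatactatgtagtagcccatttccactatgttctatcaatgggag
Gm29216, chr1:24616098-24616197, minus strand: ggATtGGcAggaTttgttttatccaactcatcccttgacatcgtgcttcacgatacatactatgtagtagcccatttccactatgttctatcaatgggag

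Levels were far lower inside the copied stretch than on either side. Levels between genes are compared per kilobase of annotated exon, as CPM per kilobase with TMM scaling, and the median over clones is given. In first tumours mt-Co1 stood at 8184, mt-Cytb (cytochrome b of complex III) at 3797 and mt-Nd1 (a membrane arm subunit of complex I) at 3627 CPM per kilobase. The neighbours mt-Co2, mt-Atp8, mt-Atp6, mt-Co3, mt-Nd3 and mt-Nd4l, at chrM:7013-10173, stood at 6.16, 2.02, 5.98, 3.91, 8.58 and 0.990. Downstream, mt-Nd4 was back at 990.2, mt-Nd5 at 1188 and mt-Nd6, the one mRNA encoded on the other strand, at 1028. Later tumours had the same step, from 7116 for mt-Co1 to 10.2 for mt-Co2 and from 0.833 for mt-Nd4l to 1066 for mt-Nd4.

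Sequence shared with annotated transcripts was high in 5 of the 6 low genes, but not in mt-Atp8. Of all 50-base words in a transcript, the share also found in other annotated transcripts was 100% for mt-Co2, 99.5% for mt-Atp6, 99.9% for mt-Co3, 98.0% for mt-Nd3 and 98.8% for mt-Nd4l. It was 0% for mt-Atp8, which lies between mt-Co2 and mt-Atp6 and has no annotated copy. Genome sequence outside annotated transcripts was not searched. The copies of mt-Co2 and mt-Atp6, Gm28661 (chr1:24614885-24615565) and Gm10925 (chr1:24613974-24614651), lie on either side of the place where a copy of mt-Atp8 would fall. Whether that stretch matches mt-Atp8 was not tested, so the 0% does not show that mt-Atp8 lacks a nuclear copy. The share was 62.2% for mt-Nd4, 51.1% for mt-Co1, 8.2% for mt-Nd2, 7.6% for mt-Nd5, 1.0% for mt-Rnr2 and 0% for mt-Nd1, mt-Nd6, mt-Cytb and mt-Rnr1. The sources used here do not give how reads that fit several places were counted, and the part of shared sequence in the low counts was not tested. Of the 7 copies in that chromosome 1 run, Gm10222, the copy of mt-Nd4l, was matched in the table at 0.105 to 2.54 CPM, and the other 6 are not used here. Sums below use the 7 mRNA genes outside the low stretch (mt-Nd1, mt-Nd2, mt-Co1, mt-Nd4, mt-Nd5, mt-Nd6 and mt-Cytb), a choice made after these levels were seen, and call them the 7 countable genes. Reads of mt-Co1 and mt-Nd4 may still be undercounted. mt-Nd5 and mt-Nd6 overlap on opposite strands, and whether counting used strand is not stated.

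**Figure D1:**
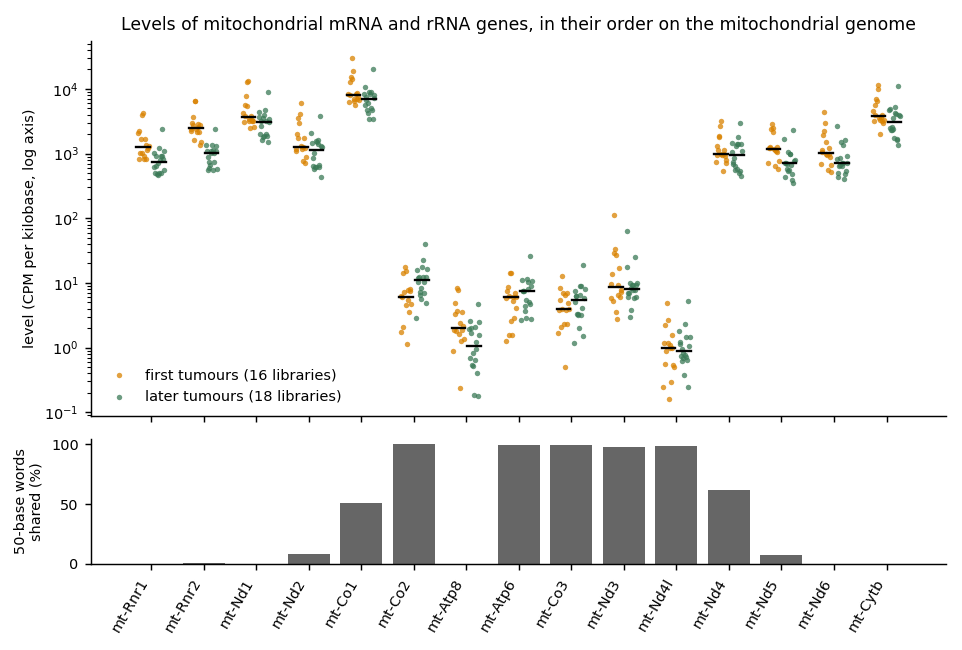
Upper panel, level of each mitochondrial mRNA and rRNA gene in CPM per kilobase on a log axis, in genome order, with a point per library and a bar at the median of the libraries in 16 first and 18 later tumour libraries. Lower panel, percent of 50-base words shared with other annotated transcripts. The 6 genes from mt-Co2 to mt-Nd4l sit far below their neighbours in both sets, and 5 of them share 98.0% or more of their words.

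The 37 mitochondrial genes together held 1.22% to 9.60% of a library's counts, and the 45 Nduf genes 0.188% to 0.331%. Within the mitochondrial mRNAs the share of mt-Co1 varied little, from 41.0% to 55.9% of the 7 countable genes in the 34 libraries. The light-strand mRNA mt-Nd6 ranged from 5.64% to 30.0% of mt-Cytb. The largest shares were in the first tumour of low clone bulk_6422c1 (30.0%) and the second of low clone bulk_2669c4 (26.2%), and the median library had 12.1%. Those same libraries had the highest levels of mt-Nd3, at 38.5 and 22.5 CPM against a median of 2.81 CPM.

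Nuclear core subunits were measured above 0 in every library. Per kilobase of merged exon, which is longer than the main transcript for some genes, the clone medians of 6 core subunits in first tumours ran from 12.4 for Ndufs1, the largest iron-sulfur subunit, to 57.8 for Ndufv1, the flavin-binding subunit. Between them lay Ndufs3 at 25.6, Ndufs7 at 32.9, Ndufv2 at 37.4 and Ndufs8 at 43.7. In later tumours Ndufs1 was again lowest of the 6 at 9.88 and Ndufv1 highest at 65.4 CPM per kilobase. The 29 accessory subunits had median levels over the labelled libraries from 8.48 CPM for Ndufb4 to 100.3 CPM for Ndufa9. The 7 assembly factors, which build the complex without staying in it, had medians from 5.51 CPM for Ndufaf6 to 20.6 CPM for Ndufaf7. Ndufa4 had a median of 132.6 CPM, and its paralogue Ndufa4l2, known as a hypoxia-induced gene, 8.55 CPM. The tRNAs are 59 to 75 bases long and were nearly absent from these counts. Of the 22, mt-Tp had a median of 25.0 CPM and mt-Tl2, the next, 1.60 CPM, and mt-Tf, mt-Tv, mt-Td and mt-Tk had a median of 0.

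Tumours of different clones differed far more in mitochondrial than in nuclear members. Most clones had 1 tumour in a set, so this spread includes that between single tumours. Over the 16 clones of the first tumours, the sum of the 7 countable genes ran from 16493 CPM in low clone bulk_6556c3 to 86024 CPM in intermediate clone bulk_6422c5, a 5.22-fold span. The sum of the 45 Nduf genes ran from 1802 CPM in intermediate clone bulk_7160c5 to 2778 CPM in low clone bulk_2669c4, a 1.54-fold span. In later tumours the spans were 6.44-fold, from 10248 CPM in low clone bulk_6694c2 to 66044 CPM in high clone bulk_6620c1, and 1.56-fold, from 2033 CPM in bulk_7160c5 to 3179 CPM in low clone bulk_6419c5. The SD of log2 CPM over clones had a median of 0.70 for the 7 genes and 0.27 for the Nduf genes in first tumours, and of 0.69 and 0.29 in later tumours. The widest Nduf gene, Ndufb4 in first tumours (0.52), was below the narrowest of the 7, mt-Cytb (0.67). In later tumours the widest Nduf gene was Ndufaf2 (0.48) and the narrowest of the 7 mt-Nd6 (0.61).

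The mitochondrial mRNAs shared their highest and lowest clones mainly in later tumours, and no single clone was highest for most Nduf genes in either set. In later tumours clone bulk_6620c1 was highest for all 7 countable genes and clone bulk_6694c2 lowest for 6 of them. In first tumours the top place was shared by bulk_6499c3 (3 genes), bulk_6422c1 (2) and bulk_6422c5 (2). Of the 45 Nduf genes, the clone with the highest level was bulk_6419c5 or bulk_6421c2 for 11 genes each in later tumours. Clone bulk_7160c5 was lowest for 22 Nduf genes in first and 19 in later tumours, while its 7 countable genes summed to 20543 and 24476 CPM, within the range of the other clones. Tumours of 1 clone can also differ: tumours 2, 3 and 4 of bulk_2669c4 had 29742, 31503 and 16112 CPM of the 7 genes and 2344, 3051 and 2984 CPM of Nduf genes. Those of bulk_2838c3 had 19179 and 21254 CPM and 2249 and 2497 CPM. From first to later tumour, bulk_6422c5 went from 86024 to 11916 CPM of the 7 genes and bulk_6620c1 from 27131 to 66044 CPM.

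**Figure D2:**
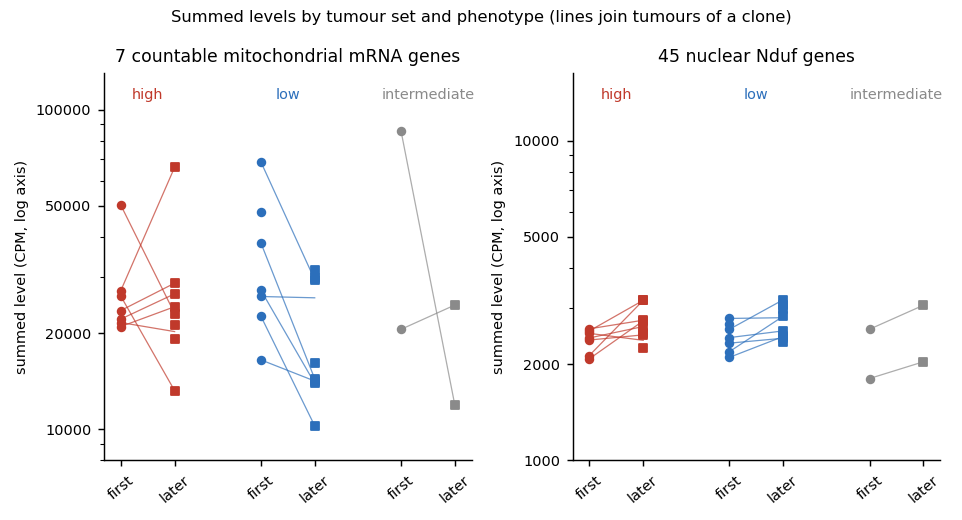
Summed level in CPM on log axes of the 7 countable mitochondrial mRNA genes (left) and the 45 Nduf genes (right), with circles for first and squares for later tumours, 1 point per library, and lines joining the mean of each clone's tumours. Both axes span about the same number of doublings; mitochondrial sums spread from 10248 to 86024 CPM and nuclear sums from 1802 to 3179 CPM.

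The comparison of T cell high with T cell low clones asked whether complex I transcripts follow the T cell phenotype. In first tumours no member was called, with edgeR's quasi-likelihood test and Benjamini-Hochberg adjustment at 0.05. The sum of the 7 countable genes was 20954, 23525 and 50319 CPM (lowest, median, highest of 7 clones) in high and 16493, 27259 and 68695 CPM (7 clones) in low clones. The groups overlapped. The mean was 27392 ± 10371 (SD, n = 7) against 35314 ± 18007 CPM (n = 7). High clones bulk_2838c3, bulk_6499c4 and bulk_6555c3, whose first tumours resembled each other closely, had 21580, 23525 and 22122 CPM. Low clone bulk_6419c5, whose first tumour resembled theirs as closely, had 27259 CPM. The next closest pair was high clone bulk_6556c4 and low clone bulk_6694c2 (chi-squared per gene 8.69), at 26115 and 22606 CPM. Close likeness thus crossed the groups compared. All these clones were counted as separate replicates, and whether they are independent was not tested. Log2 differences of these 7 genes, high minus low, ran from -0.61 for mt-Nd2 to -0.23 for mt-Nd5, with a median of -0.44, against a median of 0.02 over all genes tested. The rRNA mt-Rnr1 was at 793.6, 884.4 and 1621 CPM in high and 965.4, 1579 and 3980 CPM in low clones. The log2 difference was -0.87 (SE 0.34, adjusted p = 0.418). mt-Rnr2 was at -0.41 (SE 0.33).

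The Nduf sum in first tumours was 2077, 2414 and 2578 CPM in high and 2099, 2420 and 2778 CPM in low clones, and the groups overlapped nearly throughout. The median log2 difference over 45 genes was -0.14, and 34 of them were negative. Core subunits lay between -0.22 for Ndufv2 and 0.22 for Ndufs7. The smallest unadjusted p of any member was that of Ndufaf2, an assembly factor (log2 difference -0.69, SE 0.22, adjusted p = 0.418). Ndufs4, an accessory subunit known from inherited complex I deficiency, was at -0.46 (SE 0.17, adjusted p = 0.418), and Ndufa4 at -0.32 (SE 0.15). The tRNA with the smallest p was mt-Tw, at 0.88 (SE 0.51). In all, 0 of 77 members tested were called, and 9 had an unadjusted p under 0.05. The background was 0% called of 18743 genes and 11.3% with such an unadjusted p. DESeq2 and limma voom also called 0 members.

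The sign of the mitochondrial median in first tumours depended on which clones were fitted. Without the 8 clones over 50% of the highest liver and heart level, the median of the 7 countable genes was 0.15 in place of -0.44, and that of the Nduf genes -0.25. That fit has 2 high clones (bulk_6421c2 and bulk_7160c2) against 4 low ones. bulk_6421c2 had 50319 CPM of the 7 genes against 27131 CPM in the next high clone, so the part of liver and heart content in the turn cannot be told apart from that clone. Without low clone bulk_6499c3 alone the mitochondrial median was -0.12. That clone's library had 68695 CPM of the 7 genes, 3464 CPM of liver and heart transcripts and the lowest depth, 7.39 M counts.

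In later tumours the mitochondrial members stood higher in high clones, and again none was called. The 7 countable genes summed to 13209, 24183 and 66044 CPM (lowest, median, highest) in 7 high clones and to 10248, 14275 and 29363 CPM in 6 low clones. The means were 28838 ± 17145 (SD, n = 7) and 17979 ± 7670 CPM (n = 6), and the groups overlapped. mt-Nd4, a proton-pumping subunit, was at 738.4, 1954 and 4162 CPM in high and 619.6, 829.2 and 1946 CPM in low clones. Its log2 difference of 0.95 (SE 0.37, adjusted p = 0.65) was the largest of the 7, and mt-Nd6 had the smallest at 0.50 (SE 0.30). The other 5 were mt-Nd2 at 0.90, mt-Nd1 at 0.80, mt-Cytb at 0.68, mt-Co1 at 0.65 and mt-Nd5 at 0.62. Their median was 0.68, against 0.00 over all genes.

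All 13 mitochondrial mRNA genes were positive in later tumours, including the 6 of the low stretch, from 0.05 for mt-Nd3 to 0.94 for mt-Co2. Genes read from the same precursor are not independent. mt-Tp, the most counted tRNA, was at 7.91, 22.3 and 40.9 CPM in high and 6.30, 11.6 and 15.8 CPM in low clones, and its log2 difference of 1.16 (SE 0.36, adjusted p = 0.565) had the smallest p of any member. The rRNAs were at 0.41 (mt-Rnr1, SE 0.33) and 0.26 (mt-Rnr2, SE 0.31). The median of the 7 genes was 0.36 without high clone bulk_6620c1, whose tumour had the highest level.

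Nuclear differences in later tumours lay between -0.32 and 0.27. The Nduf sum was 2373, 2730 and 3165 CPM in high and 2409, 2667 and 3179 CPM in low clones. Its gene median was 0.04, with 27 of 45 positive. Core subunits ran from -0.05 for Ndufv1 to 0.27 for Ndufv2. Ndufb5 (-0.32, SE 0.15) had the smallest p of the accessory subunits and Ndufaf7 (0.22, SE 0.23) of the assembly factors. Of 72 members tested, 0 were called and 7 had an unadjusted p under 0.05, all of them mitochondrial. The background was 0% called of 17973 genes and 6.65% with such an unadjusted p. DESeq2 and limma voom called 0 members.

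The high-minus-low differences of the mitochondrial mRNAs and rRNAs were negative in first and positive in later tumours, whereas most tRNAs were positive in both (11 of 17 tested, median 0.19, and 11 of 12, median 0.76). The difference between the sets was tested over the 15 clones with tumours in both. All 12 mRNA genes tested were positive, later minus first, from 0.42 for mt-Nd5 to 1.97 for mt-Co3, and their median was 1.03. The 7 countable genes had a median of 0.80. None of the 73 members was called. mt-Rnr1 had the smallest p (1.12, SE 0.42, adjusted p = 0.605), and 9 members had an unadjusted p under 0.05. The background was 0% called of 16557 genes and 7.99% unadjusted. DESeq2 and limma voom called 0 members. The Nduf median was 0.13. Without the 8 clones rich in liver and heart transcripts the 7-gene median was 0.35 and the Nduf median 0.43.

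**Figure D3:**
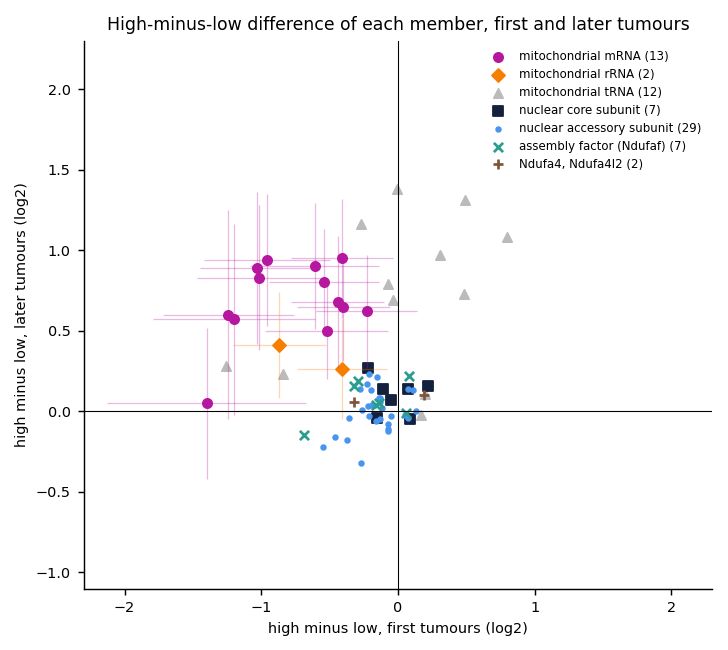
Log2 difference, T cell high minus low clones, of each member tested in both sets, first tumours on the x axis and later tumours on the y axis, with error bars of 1 SE for mRNA and rRNA genes. The 13 mitochondrial mRNA genes lie at negative x and positive y, the nuclear genes lie between -0.69 and 0.22 on the x axis and between -0.32 and 0.27 on the y axis, and no difference passed the adjusted threshold.

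The intermediate group had 2 clones, and they did not resemble each other. In first tumours the 7 countable genes summed to 86024 CPM in bulk_6422c5 and 20543 CPM in bulk_7160c5, the highest level of all clones and one of the lowest. In later tumours they summed to 11916 and 24476 CPM, in the reverse order. Ndufa4l2 was at 8.27 CPM in bulk_6422c5 and 16.1 CPM in bulk_7160c5 in first tumours, against 2.98 to 8.87 CPM in 7 low clones. It had the largest difference of any Nduf gene from low clones there, 0.92 on the log2 scale (SE 0.30, adjusted p = 0.105).

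Medians against the intermediate clones depended on which of the pair was used. Intermediate minus low, the 7-gene median in first tumours was 0.30, but -0.87 without bulk_6422c5 and 0.91 without bulk_7160c5. High minus intermediate, it was -0.71, but 0.51 and -1.41. In later tumours the medians were 0.10 (intermediate minus low) and 0.63 (high minus intermediate). No member was called in these 4 comparisons. The background was 0% for intermediate against low in both sets and for high against intermediate in first tumours. It was 0.00556% in later tumours for high against intermediate, the 1 gene 2610018G03Rik, which is no member and is named because it was the only call. With an unadjusted p under 0.05 there were 6 of 77 members for intermediate against low and 18 of 77 for high against intermediate in first tumours. Over all genes these shares were 19.3% and 14.9%. In later tumours there were 0 and 0 of 72 members, against 6.66% and 4% of all genes. limma voom called 0 members in all 4, and DESeq2 0 in later tumours.

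The tRNAs mt-Tn, mt-Tc and mt-Te were the exception among settings for the intermediate clones. In first tumours mt-Te was at 1.17 and 0.703 CPM in the 2 intermediate clones and at 0.606 to 10.4 CPM in high clones, where bulk_7160c2 was the only one under 5 CPM. Its difference, high minus intermediate, was 2.84 (SE 0.79, adjusted p = 0.0854). DESeq2 called these 3 tRNAs and no other member, in both comparisons with the intermediate clones. Leaving out clone bulk_7160c2 gave 6 called members for high against intermediate, all tRNAs, and 3 for intermediate against low. Over all genes those fits called 6.17% and 7.81% (DESeq2) and 9.8% and 9.85% (without bulk_7160c2). Liver and heart transcripts were 290.2, 257.7 and 282.7 CPM in the first tumours of bulk_6422c5, bulk_7160c5 and bulk_7160c2. There mt-Tn was at 0.586, 0.187 and 0.249 CPM. It was at 3.59, 4.32, 3.86 and 3.55 CPM in bulk_2838c3, bulk_6419c5, bulk_6499c4 and bulk_6555c3, whose liver and heart levels were 5520 to 5922 CPM. Not every tRNA or library had this order: mt-Te was highest, at 10.4 CPM, in bulk_6421c2 with 713.9 CPM of liver and heart transcripts, and mt-Tp was highest, at 97.6 CPM, in bulk_6422c5. The part of those transcripts in the difference was not tested.

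Within clones, members changed between first and later tumours, against a background in which 48.3% of 16557 genes were called. Of 73 members tested, 35 were called (47.9%), a share near the background. The directions differed by origin: 14 mitochondrial genes fell and 2 rose, while 16 Nduf genes rose and 3 fell. Over all genes 3797 rose and 4206 fell, and the median change was -0.01. The summed Nduf level with TMM scaling was higher in later tumours in 14 of 15 clones, at a median of 2730 against 2414 CPM. As a share of all counts, without that scaling, it was higher in 10 and lower in 5 clones, at a median of 0.268% against 0.246%. The sum of the 7 countable genes was lower in 10 of 15, at 23025 against 26032 CPM.

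The ribosomal RNAs of the mitochondrial ribosome fell most among the longer mitochondrial genes. mt-Rnr2, the large-subunit rRNA, was at 2152, 4123 and 10356 CPM (lowest, median, highest of 15 clones) in first and at 875.1, 1602 and 3846 CPM in later tumours. It was lower in 14 of 15 clones, a log2 change of -1.58 (SE 0.19, adjusted p = 5.86e-06). mt-Rnr1, the small-subunit rRNA, fell by 0.97 on the log2 scale (SE 0.25, adjusted p = 0.00413), also in 14 of 15 clones. The 2 rRNAs together amounted to a median of 19.7% of the 7 countable mRNA genes in first and 10.1% in later tumours, and this ratio was lower in 14 of 15 clones.

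Among the mRNAs the 7 countable genes were all negative, and 2 passed the test. mt-Nd5 fell by 0.74 (SE 0.20, adjusted p = 0.00628) and mt-Nd1 by 0.65 (SE 0.26, adjusted p = 0.0447) on the log2 scale, each in 11 of 15 clones. The other values were -0.62 for mt-Nd2, -0.53 for mt-Co1, -0.52 for mt-Cytb, -0.47 for mt-Nd6 and -0.27 for mt-Nd4, with adjusted p of 0.053 to 0.373. mt-Nd1 lost its call when any of 10 of the 15 clones was left out, and mt-Nd5 kept it in each such fit. In the low stretch 3 genes were positive (mt-Co2 0.88, mt-Atp6 0.44, mt-Co3 0.25) and 2 negative (mt-Atp8 -1.03, mt-Nd3 -0.14), and none was called.

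The tRNAs split by place. Of 14 tested, 10 fell, from -3.68 for mt-Tn (SE 0.37, adjusted p = 8.68e-07) to -1.29 for mt-Tp (SE 0.27, adjusted p = 8.53e-04). mt-Tn was at a median of 2.40 CPM in first and 0.113 CPM in later tumours, and mt-Tc, beside it on the genome, at 3.69 and 0.258 CPM. Both were lower in 15 of 15 clones. Tumour 2 of bulk_2669c4, the later library with liver and heart transcripts, had 1.96 CPM of mt-Tn, 2.33 of mt-Tc and 6.26 of mt-Te. Tumour 3 of that clone had 0.160, 0.240 and 0.759 CPM, and its first tumour 1.44, 2.52 and 2.95 CPM. The part of the liver and heart transcripts in the tRNA change was not tested. The 2 that rose were mt-Tg (1.89, SE 0.38, adjusted p = 6.21e-04) and mt-Tr (1.77, SE 0.31, adjusted p = 1.80e-04), each in 14 of 15 clones. They lie on either side of mt-Nd3, inside the stretch with nuclear copies, and were at 0.282 and 0.159 CPM in first and 1.08 and 0.654 CPM in later tumours. These levels rest on few reads.

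Nuclear accessory subunits made up most of the genes that rose. Of 29, 13 rose and 2 fell, a called share of 51.7%, near the 48.3% of all genes. Ndufa13, which is also known as the cell-death gene GRIM-19, rose from a median of 69.97 CPM to 121.3 CPM, in 15 of 15 clones (log2 change 0.82, SE 0.08, adjusted p = 6.43e-07). Its means were 67.4 ± 9.14 and 124 ± 29.8 CPM (SD, n = 15). Ndufb6 (0.73, SE 0.11), Ndufb3 (0.71, SE 0.09) and Ndufa5 (0.64, SE 0.13) followed, with adjusted p of 4.64e-05, 5.86e-06 and 5.28e-04. Ndufb3 and Ndufb6 belong to the membrane arm and Ndufa5 to the matrix arm. They were higher in 15, 15 and 14 of 15 clones. Ndufc2, Ndufs6, Ndufa3, Ndufa1, Ndufa12, Ndufa8 and Ndufa2 rose by 0.57, 0.57, 0.55, 0.51, 0.50, 0.45 and 0.43, and Ndufb7 and Ndufs5 by 0.24 and 0.23. The 2 that fell were Ndufab1, the mitochondrial acyl carrier protein (-0.24, SE 0.08, adjusted p = 0.0159), and Ndufa10 (-0.22, SE 0.06, adjusted p = 0.00607).

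Core subunits and assembly factors had median changes of 0.10 and 0.03, against 0.13 for accessory subunits. Of the 6 core subunits described, Ndufs1 fell by 0.31 (SE 0.07, adjusted p = 0.00176), from 102.2 to 79.9 CPM and in 13 of 15 clones. The other 5 lay between -0.11 for Ndufs3 and 0.16 for Ndufv1. Of 7 assembly factors, Ndufaf2 rose by 0.64 (SE 0.14, adjusted p = 9.04e-04) and Ndufaf5 by 0.38 (SE 0.10, adjusted p = 0.00523). Ndufa4 (-0.12, SE 0.09) and Ndufa4l2 (0.30, SE 0.17) did not pass the test. The Nduf genes that rose had shorter annotated exons, with a median of 960 bases in 16 genes, than the 26 not called (1822 bases). The 3 that fell had from 3331 (Ndufa10) to 8086 bases (Ndufs1). This is a description across genes, with no test.

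**Figure D4:**
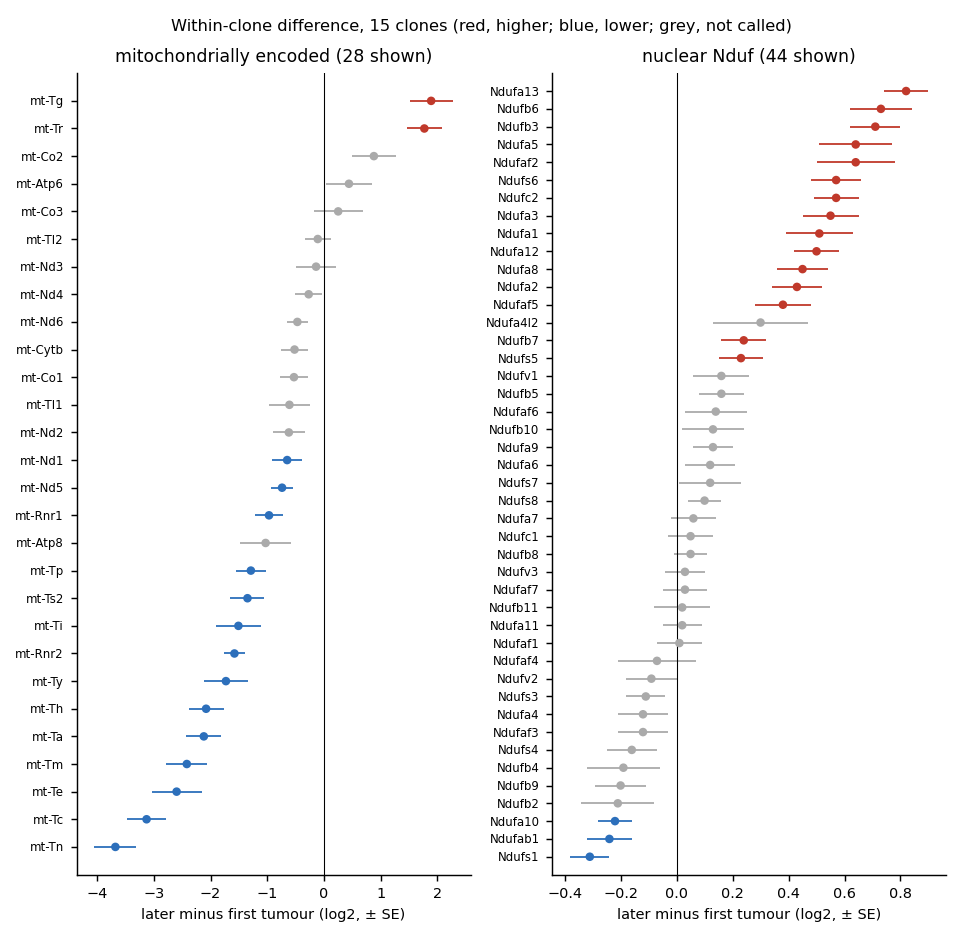
Log2 change from first to later tumours within 15 clones for the 28 mitochondrial members (left) and all but 1 of the 45 nuclear members (right) tested, with bars of 1 SE and different x scales. Red marks genes called higher, blue genes called lower and grey genes not called. The rRNAs and 10 tRNAs are blue, and the reds on the right are led by Ndufa13 at 0.82.

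Liver and heart transcripts changed with tumour number in these same pairs. All 10 liver genes and all 8 heart genes tested fell within clones, with median changes of -10.67 and -7.11. The muscle forms of complex IV subunits, Cox6a2, Cox7a1 and Cox8b, fell too, from a summed 6.47 to 111.9 CPM in first tumours to 1.23 to 51.4 CPM in later ones. Fitting only the 7 clones at or under 50% of the highest liver and heart level left 21 members called of 68 tested, against a background of 15.9%. Of the 35 calls, 18 remained, 5 mitochondrial and 13 nuclear, and 4 (mt-Tn, mt-Tm, mt-Th and mt-Ty) were not tested in this fit. All 31 that were tested kept their sign. mt-Rnr2 was then at -1.58 (SE 0.28, adjusted p = 0.00926) and mt-Rnr1 at -1.49 (SE 0.31, adjusted p = 0.0142). Ndufa13 was at 0.81 (SE 0.13, adjusted p = 0.00752) and Ndufb3 at 0.70 (SE 0.13, adjusted p = 0.00968). The tRNA falls were smaller: mt-Tc was at -1.98, mt-Ta at -1.28, mt-Te at -1.13 and mt-Ti at -0.68, of which mt-Tc and mt-Ta were still called, while mt-Tp was at -1.62. Among the 13 tested genes no longer called, mt-Nd1 was at -0.86 and mt-Nd5 at -0.59 (adjusted p = 0.134 and 0.219). mt-Tr was at 1.73, mt-Tg at 1.12 and Ndufs1 at -0.25 (adjusted p = 0.0508, 0.0569 and 0.135). These 7 clones still carried 257.7 to 2375 CPM of liver and heart transcripts in their first tumours, so the smaller fit does not remove them.

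Other genes of the respiratory chain changed in both directions within clones, against the background of 48.3% of all genes called (3797 rose and 4206 fell). The counts that follow were not tested against that share. Of 9 nuclear complex III genes 3 rose and 2 fell, with Uqcrc2, a core protein, at -0.60 (SE 0.07, adjusted p = 1.84e-06). Of 10 complex IV genes 4 rose and 2 fell, with Cox5b at 0.55 (SE 0.07, adjusted p = 1.35e-05). Of 15 complex V genes 3 rose and 3 fell, with Atp5c1, the gamma subunit of ATP synthase, at -0.63 (SE 0.08, adjusted p = 5.40e-06). Of 4 complex II genes 2 fell and none rose, with Sdhb at -0.24 (SE 0.07, adjusted p = 0.00838). Of 7 complex I assembly genes outside the Nduf names 1 rose, Timmdc1 (0.32, SE 0.08, adjusted p = 0.00464), and 2 fell. The medians of these lists were between -0.15 and 0.14.

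Genes that copy, transcribe and process mitochondrial DNA did not move as one either, against the same background of 48.3%. Of 18, 4 rose and 3 fell within clones, with Grsf1, an RNA-binding protein of mitochondrial RNA granules, at -0.43 (SE 0.07, adjusted p = 1.03e-04), and the median was -0.01. Of 6 regulators of respiration 1 rose and 2 fell, and Esrra, a nuclear receptor that drives oxidative genes, had the smallest p (0.60, SE 0.09, adjusted p = 3.30e-05). Of 5 genes often used for mitochondrial mass 1 rose and 2 fell, with Tomm20 at -0.23 (SE 0.05, adjusted p = 0.00194).

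None of these lists had a called gene between high and low clones in either set. In first tumours the genes with the smallest p were Uqcrb (-0.53), Cox6c (-0.34), Atp5j (-0.49), Trmt10c (-0.79), a subunit of the tRNA-cutting enzyme, and Gabpa (-0.57), each with adjusted p = 0.418. They were Tmem126b (-0.34), Sdhb (0.09) and Cs (0.22) for the rest, with adjusted p of 0.515, 0.767 and 0.475. In later tumours they were Tmem186 (-0.35), Sdhd (0.27), Uqcrh (0.43), Cox7a2 (0.22), Atp5o (-0.28), Trmt10c (-0.29), Gabpa (-0.30) and Vdac1 (-0.40), with adjusted p of 0.64 to 0.821. T cell genes checked the phenotype label: all 7 were positive, high minus low, in both sets, with medians of 1.80 and 1.19, and none was called. Against the order of the labels, they were lower in high than in intermediate clones, with medians of -1.37 (0 of 7 positive) and -0.83 (1 of 7 positive), again with none called. In first tumours their sum was 5.01 to 38.9 CPM in high and 3.50 to 8.29 CPM in low clones, and 19.3 and 45.9 CPM in the 2 intermediate clones.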

How the data were processed

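Gene counts of 37 libraries were used as the authors deposited them, as raw counts per gene in 1 table. Per the submitters' processing notes STAR, featureCounts and mm10 were used, with no version. Per the labels' protocols RNA was isolated with an RNeasy Micro kit and 500 ng of total RNA entered an NEB library kit. The sources used here do not give how strand and reads that fit several places were handled. All 39017 rows name a gene.

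Groups came from the phenotype label and the tumour number from the title. A clone's later tumours were summed for tests, and CPM with TMM factors were averaged over them for levels. Genes passing filterByExpr were fitted with edgeR 4.0.16 (R 4.3.3) by glmQLFit and glmQLFTest, on all groups of a set, with Benjamini-Hochberg adjustment over all genes at 0.05. SE is the log2 difference divided by the square root of F. The change within clones and the interaction had the clone as a block. The pairing comes from the clone name shared by titles. Deviations of a clone's first and later tumours correlated at -0.113 to 0.686 (median 0.357), over 0.1 in 11 of 15 clones. In only 6 of the 15 did the first tumour correlate best with the later tumours of its own clone. The correlations of bulk_2838c3, bulk_6419c5, bulk_6499c4 and bulk_6555c3 were 0.114, 0.0653, -0.113 and -0.00185. Alternatives were DESeq2 1.42.0, limma voom (3.58.1), other scalings, no filter, each clone left out, libraries with liver and heart transcripts left out, 1 later tumour per clone, and no block. The scripts were tested on simulated counts. Whether tumours of a clone came from separate cultures is not stated. The p-values measure the spread between clones as sampled, with 16 libraries for 16 clones in first and 18 for 15 in later tumours. Variation between clones and between tumours of a clone cannot be told apart in that spread.

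Members and lists were chosen with earlier results of these data known. Genes named were the 13 mRNAs, 2 rRNAs, 7 core subunits, Ndufa4 and Ndufa4l2, and in each comparison up to 5 called members a direction with the largest change. From the accessory, assembly factor and tRNA lists, the member with the highest median level and those with the smallest p for high against low in each set were added. From each other list, the gene with the smallest p for high against low in each set and within clones was named. Other members named were chosen after their values were seen. Gene models and sequences came from GENCODE M21 (GRCm38), in which all 82 members were matched by identifier. The values of 1 core subunit are not reported here.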

Additional observations from a re-analysis of the deposited data

Results flagged for a closer look

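In 84 groups of 6 or 7 clones tested, 27 had a highest or lowest clone set apart from the rest by Dixon's criterion. Chance flags about 1 group in 20, and genes of a library are not independent. Most flags came from 3 libraries in which the mitochondrial genes were high together.

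The first tumour of high clone bulk_6421c2 had 50319 CPM of the 7 countable genes, against 27131 in the next high clone. It was set apart for mt-Nd1 (7338 CPM), mt-Nd2 (3648 CPM), mt-Co1 (23316 CPM), mt-Nd4 (2601 CPM), mt-Nd5 (4392 CPM), mt-Nd6 (1150 CPM) and mt-Cytb (7874 CPM). Its later tumour had 23025 CPM of the 7 genes.

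The later tumour of high clone bulk_6620c1 had 66044 CPM of the 7 genes, against 28655 in the next, and 6117 CPM of both rRNAs. It was set apart for mt-Nd1 (8622 CPM), mt-Nd2 (3906 CPM), mt-Co1 (31581 CPM), mt-Nd5 (4206 CPM), mt-Cytb (12739 CPM), mt-Rnr1 (2271 CPM) and mt-Rnr2 (3846 CPM). Its first tumour had 27131 CPM of the 7 genes.

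The first tumour of low clone bulk_6499c3, the library of lowest depth, had 14321 CPM of both rRNAs, with mt-Rnr1 at 3980 CPM and mt-Rnr2 at 10341 CPM. mt-Nd1 (12902 CPM) and mt-Nd2 (6231 CPM) were set apart as well. In the first tumour of low clone bulk_6422c1 only mt-Nd6 was, at 2242 CPM against 1010 in the next.

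Nuclear flags were few. Ndufs3 was lowest in the first tumour of bulk_7160c2 (49.91 CPM) and highest in the later tumour of bulk_6421c2 (78.8 CPM) among high clones. In the first tumour of low clone bulk_2669c4, Ndufs8 was at 82.93 CPM and Ndufa4 at 231.3 CPM.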

How the results depend on the processing

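Of 177 alternative fits of the 8 counts of called members, 172 gave a like count, with a ratio limit of 1.5. All counts but the 35 within clones were 0. Most fits of those other comparisons called few or no genes of any kind, so a like count there was nearly fixed in advance. For high against intermediate clones in first tumours DESeq2 called 3 members, and leaving out a clone gave 0 to 6. For intermediate against low clones they gave 3, and 0 to 3. Within clones 21 members were called without the 8 clones rich in liver and heart transcripts, in place of 35, where the fit has fewer clones. Without a replicate block 36 were called, 35 of them shared, so the pairing changed no call among the 35. Over all genes the block did change the calls: 36.7% were called without it and 48.3% with it.

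The SD between clones is as large as most medians of the mitochondrial genes, so it is a wide limit for calling a median moved: the turn from -0.44 to 0.15 for high minus low clones in first tumours lies within it. The Nduf median of the interaction was 0.43 without the 8 clones. Leaving out a clone moved the medians against the 2 intermediate clones. In first tumours, high minus intermediate, they ran from -1.41 to 0.51 (7 countable genes), -1.72 to 0.30 (13 mRNA genes) and -0.14 to 0.33 (Nduf). Intermediate minus low, they ran from -0.87 to 0.91, -0.87 to 0.97 and -0.33 to 0.02. In later tumours, high minus intermediate, they ran from 0.29 to 1.29, 0.10 to 1.35 and -0.15 to 0.35. Intermediate minus low, those of the 13 mRNA genes ran from -0.61 to 0.55 and of Nduf from -0.37 to 0.17.

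Single genes turned in sign between high and low clones. In first tumours without the 8 clones the values were 0.30 for mt-Nd1, 0.32 for mt-Nd2, 0.14 for mt-Co1, 0.26 for mt-Nd4, 0.15 for mt-Nd5, 0.09 for mt-Cytb and 0.11 for mt-Rnr2. Leaving out single clones gave mt-Nd5 -0.49 to 0.04, the latter without bulk_6422c1. In later tumours it gave mt-Rnr2 -0.05, without bulk_6620c1, to 0.39, and the interaction of mt-Co1 at -0.11 without the 8 clones. None of these had been called, and the cause was not tested. Of 798 alternative fits of the 35 genes called within clones, 760 kept the call and 38, in 13 genes, lost it with the same sign. Total counts per library limit the tRNAs most, which lie near 0 in many libraries.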

Other observations

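Of the 3 libraries with no phenotype label, some values lay outside the range of the 34 labelled ones. Ndufa4 was at 46.8 CPM in bulk_6883c1 and 66.7 CPM in bulk_6883c4, below the labelled minimum of 90.8 CPM. mt-Rnr1 was at 362 CPM in bulk_6883c1, below 446.1 CPM, and Ndufa4l2 at 23.3 CPM in bulk_7062c3, above 16.6 CPM. The first tumours of clones bulk_6883c1 and bulk_6883c4 had 34732 and 32265 CPM of the 7 countable mitochondrial mRNA genes and 2151 and 2143 CPM of Nduf genes. A tumour numbered 2 of clone bulk_7062c3 had 18936 and 2353 CPM. Their rRNAs summed to 3434, 3107 and 4859 CPM, and their liver and heart transcripts to 106, 709.5 and 0.159 CPM.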
